A study of Mus musculus with 21 samples.

Results

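Withdrawal of the inhibitor pair 2i from the mouse embryonic stem cell line A2 was examined by RNA sequencing, with naive cells set against the ground-state cells they came from. The members were the libraries labelled naive or ground in line A2, 3 of each, which are 6 of the 21 libraries of the series. Naive cells were A2 cells kept for 4 days without 2i in medium with 10% fetal bovine serum and 1000 U/mL of leukaemia inhibitory factor (LIF). Ground-state cells were A2 cells kept with 2i in the same medium, so serum, LIF, beta-mercaptoethanol and antibiotics were common to both groups. The sources used here name no gene edit or transgene. A2 is a single line, and per the labels it came from the inner cell mass of embryos before implantation. Naive and ground cells of a second line, D3, prepared in the same way with 3 libraries each, served as the comparison for what was particular to A2. The other 9 libraries, of later stages, entered only the shared estimate of spread. The comparison asks which genes change when ground-state cells leave the inhibitors for the naive state.

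2i is a pair of small molecules, one that blocks MEK and so the ERK kinases below the FGF receptors, and one that blocks GSK3 and so stabilises beta-catenin, the effector of canonical Wnt signalling. Together with LIF, which signals through STAT3, it holds mouse embryonic stem cells in a uniform state close to the preimplantation epiblast. Without it, ERK targets such as Egr1 and the Dusp and Sprouty genes become active, while targets of beta-catenin such as Axin2 lose their drive. Cells in serum and LIF are known to vary more from cell to cell and to carry more DNA methylation than cells in 2i.

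Total counts were 17306036 to 20468946 in naive and 18824044 to 22286752 in ground libraries. The share of counts from mitochondrial genes was 1.8 to 2.49% in naive and 1.86 to 3.41% in ground libraries, the highest being that of ground replicate 2. Between 20783 and 21097 genes had a count in each naive library, against 19563 to 20142 in each ground library. On the first principal component of log2 levels, which carried 81.3% of the variance among these 6 libraries, naive libraries lay between 58.89 and 59.78 and ground libraries between -61.97 and -56.32. Pou5f1, Sox2 and Nanog, which mark pluripotent cells, were high in the A2 libraries of both groups, with the values given further on. The labels do not tell whether replicates came from different cultures, and the p-values then cover only the variation among the libraries at hand, which may be technical. Fewer cells of a type and less RNA per cell cannot be told apart in such bulk samples. Levels are in CPM, the count of a gene scaled to a common library size, given per replicate in order 1 to 3 or as a mean with its SD (n = 3 in each group). Changes are log2 fold changes of naive over ground with their standard error (SE).

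Removal of 2i changed the level of 8446 of the 16575 genes tested, or 51.0%, at an adjusted p below 0.05. Of all genes tested, 25.1% were higher in naive cells (4157 genes) and 25.9% were lower (4289 genes). Changes called and of at least 2-fold were found for 19.5% of genes, with 2044 higher and 1195 lower. At 16-fold or more there were 129 higher and 66 lower genes. The naive and ground libraries did not overlap for 59.5% of the genes tested. Most calls were below 2-fold. The share called was 36.2% among genes below 1 CPM, 55.1% from 1 to 10 CPM, 57.1% from 10 to 100 CPM and 47.2% above 100 CPM. Every count of a gene list below is to be read against 25.1% higher and 25.9% lower, and against a median change of 0 over all genes tested.

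**Figure D1:**
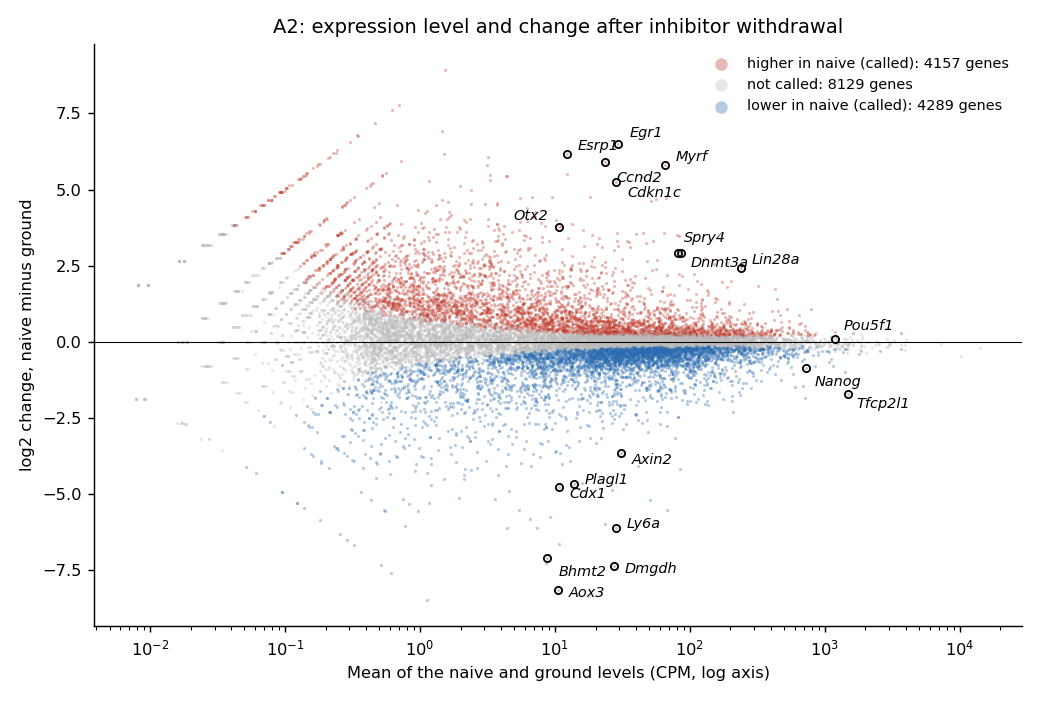
Change on the log2 scale, naive minus ground, against the mean level in CPM (log axis) for the 16575 genes tested in A2, red where called higher, blue where called lower and grey where not called. Named genes such as Egr1 at 6.50 and Dmgdh at -7.35 lie far above and below the bulk, while Pou5f1 lies near 0.

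The largest rises included a transcription factor of the ERK response, a splicing factor and a Notch ligand. By the rule for named genes, which asked for 5 CPM or more on average in whichever group was higher and for separate ranges, the 10 largest rises were Egr1, Esrp1, Dll1, Ccnd2, Myrf, Nos3, Crocc2, Jph4, Spink1 and Gstt1. Their log2 changes lay between 5.43 and 6.50. Esrp1, which directs epithelial splicing, had 24.3, 22.9 and 25.5 CPM in the naive libraries, against 0.236, 0.442 and 0.326 CPM in the ground libraries. Ccnd2, the gene of cyclin D2, had 50.1, 42.5 and 46.7 CPM in the naive libraries, against 0.662, 0.718 and 0.924 CPM in the ground libraries. Myrf, a membrane-bound transcription factor known for its part in myelin formation, had 135, 111 and 138 CPM in the naive libraries, against 2.13, 1.99 and 2.66 CPM in the ground libraries. For each of these genes every naive library lay more than an order of magnitude above every ground library. The changes were 6.17 ± 0.16, 5.91 ± 0.30 and 5.82 ± 0.15, with adjusted p = 5.55e-18, 3.38e-13 and 5.55e-18. Nos3, the endothelial nitric oxide synthase, shares 32.3% of its exon bases with other genes, Atg9b among them, and the library chemistry does not mark the strand, so the genes there cannot be told apart fully.

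The 10 largest falls were Aox3, Dmgdh, Nkx1-2, Bhmt2, Crxos, Pglyrp1, Ly6a, Tlx2, Cyp1a1 and Ido2, with log2 changes between -8.13 and -5.82. Aox3, an aldehyde oxidase, had 0.115, 0 and 0.0975 CPM in the naive libraries, against 24.7, 19.4 and 19.08 CPM in the ground libraries. Ly6a, which encodes the GPI-linked surface protein Sca-1, had 0.807, 0.833 and 0.780 CPM in the naive libraries, against 60.6, 56.2 and 51.5 CPM in the ground libraries. Separate ranges were required by the rule for named genes, so the lack of overlap in these falls follows from it. Aox3 had no count in naive replicate 2. Ly6a fell by 6.11 on the log2 scale (SE 0.19, adjusted p = 7.12e-17). Of the 50-base stretches of Ly6a, 19% also occur in other genes of its family such as Ly6c1, so part of its reads may not be assigned to 1 gene. Nkx1-2 and Tlx2 encode homeobox proteins, Pglyrp1 a peptidoglycan recognition protein, and Ido2 an enzyme of tryptophan breakdown. Nkx1-2 had 0.173, 0.0490 and 0.0975 CPM in the naive libraries, against 20.2, 12.4 and 18.2 CPM in the ground libraries.

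Immediate early genes were higher or not called. The list of immediate early genes, which are switched on within minutes of a signal without new protein synthesis, had 7 of 11 tested members higher and 0 lower, with a median log2 change of 1.56. Egr1, a zinc finger factor that is the classical readout of ERK activity, had 62.3, 54.5 and 58.8 CPM in the naive libraries, against 0.757, 0.774 and 0.381 CPM in the ground libraries. Myc, which also answers to ERK, had 80.6, 95 and 88.6 CPM in the naive libraries, against 16.6, 17.8 and 17.3 CPM in the ground libraries. Fos had 6.63, 5.10 and 5.51 CPM in the naive libraries, against 2.08, 2.05 and 1.69 CPM in the ground libraries. The groups did not overlap for any of these genes, and Egr1 was 90.3-fold higher in naive cells, Myc 5.11-fold higher and Fos 2.95-fold higher. The changes were 6.50 ± 0.28, 2.35 ± 0.10 and 1.56 ± 0.23, with adjusted p = 1.79e-14, 1.71e-14 and 6.74e-06. Junb averaged 45.8 ± 2.62 CPM in naive and 20.7 ± 0.715 CPM in ground cells and was called higher (adjusted p = 9.88e-11). Egr2 had 16 counts over the naive libraries and 0 over the ground libraries, which makes it at least 5.27-fold higher against a floor of 3 counts over the group (adjusted p = 0.000939). Fosl1 was called higher, at 2.01 against 0.608 CPM in naive and ground, although 57.2% of its exon bases are shared with Ccdc85b. Srf, whose protein binds the promoters of such genes, averaged 70.6 ± 3.12 CPM in naive and 69.6 ± 7.44 CPM in ground cells and was not called, and neither were Ier2, Fosb and Egr3.

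Feedback inhibitors and ETS factors of the ERK pathway were mostly higher, with 11 of 15 higher and 2 lower and a median of 0.84. Sprouty proteins and their Spred relatives damp signalling between the receptor and ERK, and the dual-specificity phosphatases remove phosphate from ERK itself. Spry4 had 132, 163 and 158 CPM in the naive libraries, against 18.1, 18.7 and 23.7 CPM in the ground libraries. Dusp6, a cytoplasmic ERK phosphatase, had 72.6, 81.7 and 74.9 CPM in the naive libraries, against 21.7, 21.4 and 23.8 CPM in the ground libraries. In both genes the lowest naive library was at least 3 times the highest ground library. The changes were 2.91 ± 0.12 for Spry4 and 1.78 ± 0.07 for Dusp6, with adjusted p = 5.61e-15 and 3.2e-15. Dusp4, the nuclear counterpart, rose by 2.87 ± 0.25 (adjusted p = 1.78e-09), and Dusp5, which shares 22.1% of its exon bases with another gene, by 1.53 ± 0.20. Spred1 rose by 1.12 ± 0.09 and Spry2 by 0.84 ± 0.06. The ETS factors differed from each other. Etv4 averaged 210 ± 6.82 CPM in naive and 105 ± 7.89 CPM in ground cells (adjusted p = 1.04e-09), whereas Etv5, at 646 ± 17.8 CPM in naive and 635 ± 36.5 CPM in ground cells, was not called (adjusted p = 0.790). The cytokine gene Lif, also on this list, was one of its 2 lower members, at -0.55.

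FGF ligands and receptors had 9 of 16 higher and 4 lower, with a median of 1.09. The number lower was 1 under total-count scaling or without ground replicate 1 and 2 by DESeq2, with 9 higher in each. The receptor gene Fgfr2 had 15.1, 12.6 and 16.8 CPM in the naive libraries, against 1.28, 1.44 and 1.36 CPM in the ground libraries. Its change was 3.45 ± 0.16 (adjusted p = 8.16e-14), with no overlap between the groups. Among ligands, Fgf17 averaged 99.3 ± 8.55 CPM in naive and 15.6 ± 0.683 CPM in ground cells and Fgf15 7.12 ± 0.474 CPM in naive and 0.297 ± 0.170 CPM in ground cells, called with adjusted p = 4.89e-16 and 1.21e-12, although Fgf15 shares 25.7% of its exon bases with other gene models. Fgf1 rose by 5 ± 0.36 (adjusted p = 8.93e-11). Fgf10 went the other way, with 1.26 ± 0.315 CPM in naive and 6.52 ± 0.789 CPM in ground cells (adjusted p = 4.47e-09). Fgf4, the ligand that stem cells make for themselves, was high in both groups at 186 ± 8.14 CPM in naive and 221 ± 6.99 CPM in ground cells. It was called lower (adjusted p = 0.0413), but the call was lost under RLE scaling (adjusted p = 0.0618), total-count scaling (0.154), DESeq2 (0.0605), the replicate block (0.0536) and a fit of only the 12 A2 libraries (0.0627), and without naive replicate 1 (0.122), naive replicate 3 (0.156), ground replicate 1 (0.111), ground replicate 2 (0.0504) or ground replicate 3 (0.134).

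The targets of beta-catenin showed the reverse. Of 20 Wnt target genes tested, 12 were lower and 4 higher in naive cells, with a median of -0.58. Axin2, the negative regulator that is the standard readout of the pathway, had 4.90, 4.02 and 4.73 CPM in the naive libraries, against 66.7, 47.8 and 57.2 CPM in the ground libraries. Sp5, a zinc finger factor induced by Wnt, had 3.58, 3.28 and 4.09 CPM in the naive libraries, against 42.1, 24.1 and 31.3 CPM in the ground libraries. Cdx1, a caudal-type homeobox gene, had 0.461, 0.980 and 0.780 CPM in the naive libraries, against 24.5, 16.4 and 21.1 CPM in the ground libraries. All 3 genes were lower in every naive library than in any ground library, and within the ground group replicate 1 was the highest and replicate 2 the lowest for each of them. Axin2 was 12.6-fold lower (-3.66 ± 0.17, adjusted p = 5.09e-14), Sp5 8.90-fold lower (-3.15 ± 0.20, adjusted p = 9.02e-12) and Cdx1 27.3-fold lower (-4.77 ± 0.26, adjusted p = 8.79e-13). Apcdd1, a membrane-bound inhibitor of Wnt signalling, averaged 7.76 ± 0.671 CPM in naive and 56.5 ± 4.36 CPM in ground cells and fell as well (adjusted p = 6.91e-15). Tnfrsf19, Cdx2, T, Rnf43 and Notum were also called lower, although 38.1% of the exon bases of Notum are shared with antisense and other models. Of the 4 higher members, Lef1, Myc and Bmp4 stood at 3.48 ± 0.32, 2.35 ± 0.10 and 1.498 ± 0.09. Lef1, a DNA-binding partner of beta-catenin, is on the formative list too. The fourth, Lgr5, a receptor of R-spondins, averaged 0.188 ± 0.147 CPM in naive cells and had no count in the ground libraries, and its call (adjusted p = 0.0159) was lost without naive replicate 3 (adjusted p = 0.0803).

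Promoters of these 2 gene groups are shown because both inhibitors act through factors that bind near target genes. The 250 bases before the start of transcription were taken from RefSeq on build GRCm38.p6, which held 13 of the 20 Wnt targets, 6 of the 11 immediate early genes and 11 of the 15 feedback genes. They were searched on both strands for the letters ATCAAAG, bound by TCF and LEF factors, CCGGAAG for ETS factors, TGACGTCA for the cyclic AMP element, CACGTG for E-boxes, and for the CArG box bound by Srf. In the Sp5 promoter, at chr2:70474673-70474922 on the plus strand, the capitals mark the TCF and LEF letters, read on the opposite strand, 104 to 98 bases before the start. In the Axin2 promoter, at chr11:108920099-108920348 on the plus strand, none of the searched letters were found. In the Egr2 promoter, at chr10:67537619-67537868 on the plus strand, the capitals mark a CArG box 72 to 63 bases before the start. Egr2 was added after the search, and a CArG box lay in the windows of 4 of its 5 annotated starts. In 3 of these windows, which overlap each other, it was the printed box. The window at chr10:67537316-67537565 held a different one, CCTTTTTTGG.
Sp5: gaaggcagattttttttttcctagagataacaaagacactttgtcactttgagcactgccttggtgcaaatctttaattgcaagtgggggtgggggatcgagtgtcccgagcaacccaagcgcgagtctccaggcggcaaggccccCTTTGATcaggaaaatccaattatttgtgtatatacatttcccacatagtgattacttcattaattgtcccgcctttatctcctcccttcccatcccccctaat
Axin2: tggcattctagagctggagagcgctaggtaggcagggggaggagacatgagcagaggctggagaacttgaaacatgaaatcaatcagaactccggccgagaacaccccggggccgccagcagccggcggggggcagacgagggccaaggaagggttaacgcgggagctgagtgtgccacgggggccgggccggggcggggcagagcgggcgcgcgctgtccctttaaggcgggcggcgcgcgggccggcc
Egr2: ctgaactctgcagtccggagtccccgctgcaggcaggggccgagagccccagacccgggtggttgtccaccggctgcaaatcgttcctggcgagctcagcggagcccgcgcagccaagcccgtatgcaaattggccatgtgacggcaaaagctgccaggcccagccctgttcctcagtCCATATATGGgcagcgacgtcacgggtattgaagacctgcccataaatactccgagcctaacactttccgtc
Over all 32851 promoters of this length, 3.21% held the TCF and LEF letters and 1.47% a CArG box. Over the 15211 promoters of genes tested the shares were 2.29% and 1.18%. Among the Wnt targets, Sp5 and Tnfrsf19 had the TCF and LEF letters in a window, which was 2 of 21 promoters. None of the immediate early or feedback genes had them. A CArG box lay in windows of Egr2 and Srf among the immediate early genes, of Dusp5 among the feedback genes, and of Lef1 and Tcf7 among the Wnt targets. The ETS letters lay in 0 of 13 promoters of the feedback genes. Among the immediate early genes 1 of 10 promoters held them, that of Srf. Among the Wnt targets 3 of 21 did, those of Tcf7, Rnf43 and Bmp4. Over all promoters the share was 6.91%, and 1821 of the 15211 promoters of genes tested held them. E-box letters lay in 0 feedback, 1 immediate early and 3 Wnt target promoters, and the cyclic AMP element in 0 of each. The promoters of Fos and Dusp6 held none of the letters searched. A match here is a description of the letters, and the windows leave out sites farther away.

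Wnt ligands and receptors had 10 of 23 higher and 5 lower, with a median of 0.46, or 0.44 with genes at 0 in a group set at their bound. The noncanonical ligands went in opposite directions. Wnt5a had 3.17, 3.14 and 3.36 CPM in the naive libraries, against 0.236, 0.166 and 0.109 CPM in the ground libraries. Wnt5b had 0.346, 0.392 and 0.585 CPM in the naive libraries, against 4.16, 4.86 and 3.81 CPM in the ground libraries. There was no overlap for either gene, and the changes were 4.17 ± 0.37 (adjusted p = 3.44e-09) and -3.24 ± 0.27 (adjusted p = 1.37e-09). The receptor gene Fzd10 fell, at 26.3 ± 0.841 CPM in naive and 97.3 ± 9.27 CPM in ground cells (adjusted p = 3.25e-13).

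**Figure D2:**
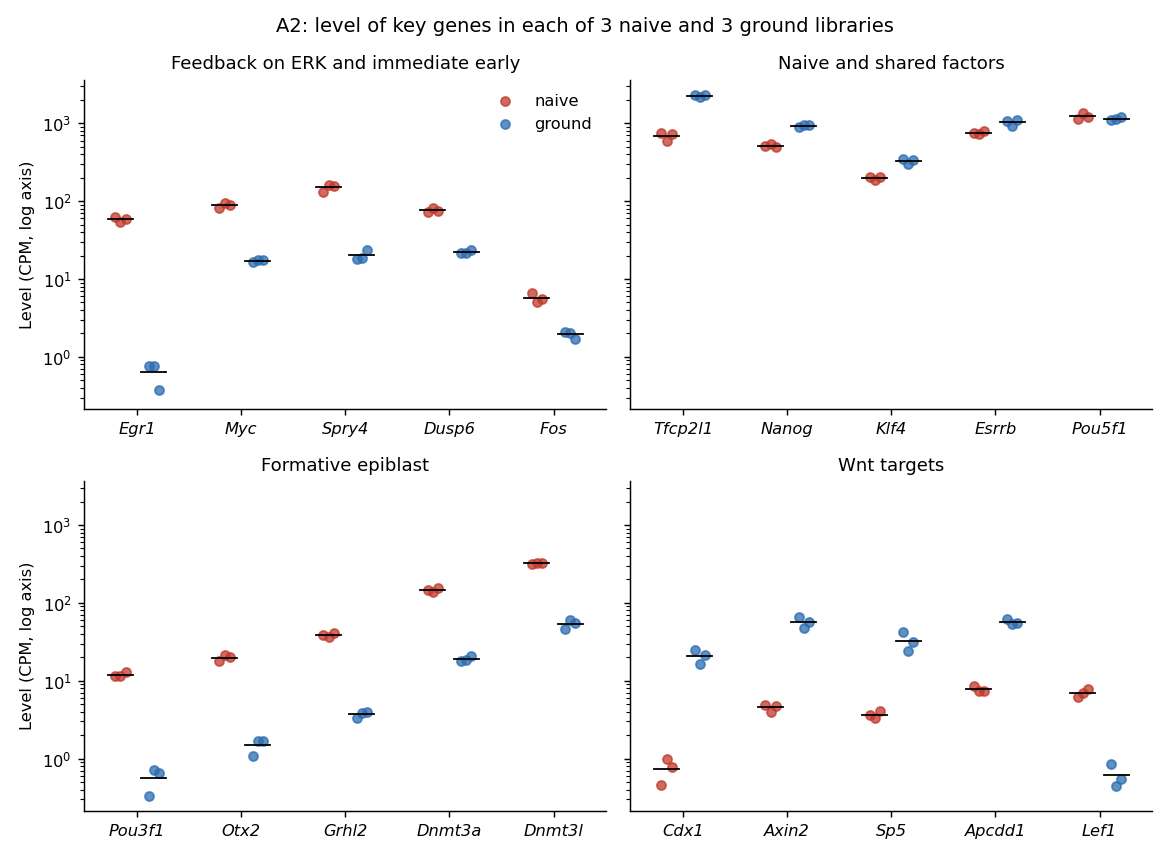
Level in CPM (log axis) of named genes in each of 3 naive (red, left) and 3 ground (blue, right) libraries, with a line at each group's mean. Egr1 and Spry4 lie far higher in naive libraries, Axin2 and Cdx1 far lower, and Pou5f1 is level between the groups.

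Part of the naive pluripotency network was lower, Nanog included, while Pou5f1 was not called. Of 20 naive factors, 10 were lower and 3 higher in naive cells, with a median of -0.22, so more of them were lower than higher in the cells labelled naive. Tfcp2l1, a LIF-responsive factor of the network, had 745, 599 and 735 CPM in the naive libraries, against 2326, 2162 and 2309 CPM in the ground libraries. Nanog had 505, 541 and 492 CPM in the naive libraries, against 906, 939.5 and 942 CPM in the ground libraries. Klf4 had 203, 189 and 207 CPM in the naive libraries, against 348, 298 and 342 CPM in the ground libraries. The groups did not overlap for any of them. Tfcp2l1 was 3.27-fold lower (-1.71 ± 0.13, adjusted p = 3.96e-10), Nanog 1.81-fold lower (-0.86 ± 0.08, adjusted p = 1.61e-08) and Klf4 1.65-fold lower (-0.72 ± 0.10, adjusted p = 2.56e-06). Esrrb, a nuclear receptor that the TCF factor Tcf7l1 represses, averaged 754 ± 29.8 CPM in naive and 1029 ± 90.8 CPM in ground cells, a smaller fall (adjusted p = 0.00130). Tbx3 and Prdm14 were lower by about the size of Nanog, at -0.95 ± 0.08 and -0.89 ± 0.10. Zfp42, which encodes Rex1, averaged 1049 ± 57.6 CPM in naive and 1143 ± 25.7 CPM in ground cells, and Klf2 and Klf5 were likewise not called. Gbx2 was higher, at 64.5 ± 5.37 CPM in naive and 27.5 ± 3.27 CPM in ground cells (adjusted p = 1.66e-07), but 43.5% of its exon bases are shared with an overlapping transcript.

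The shared pluripotency factors had 8 of 15 higher, 1 lower and a median of 0.22. Pou5f1, which encodes Oct4, had 1148, 1344 and 1195 CPM in the naive libraries, against 1103, 1131 and 1193 CPM in the ground libraries. These values overlapped, and the change of 0.11 ± 0.10 was not called (adjusted p = 0.409). Sox2 averaged 502 ± 10.1 CPM in naive and 432 ± 19.7 CPM in ground cells, a call (adjusted p = 0.0163) that was lost without ground replicate 2 (adjusted p = 0.0724). Lin28a, an RNA-binding protein that blocks let-7 maturation, had 403, 408 and 398 CPM in the naive libraries, against 71.2, 68.8 and 85.0 CPM in the ground libraries. It rose by 2.43 ± 0.08 (adjusted p = 3.01e-16), and its relative Lin28b by 1.77 ± 0.13. Utf1 rose by 1.83 ± 0.14, Dppa4 by 1.37 ± 0.08 and Dppa2 by 1.36 ± 0.08. The last 2 genes are partners at bivalent promoters. Dppa5a was the lower member, at -0.56.

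Genes of the formative epiblast, the state between naive and primed, were nearly all higher. Of 17 tested, 15 were higher and 0 lower, with a median of 2.23. Pou3f1, which encodes Oct6, had 11.5, 11.4 and 12.9 CPM in the naive libraries, against 0.331, 0.718 and 0.652 CPM in the ground libraries. Otx2, a homeobox factor that redirects Oct4 to new enhancers, had 17.8, 21.5 and 20.1 CPM in the naive libraries, against 1.09, 1.66 and 1.69 CPM in the ground libraries. Grhl2, a Grainyhead factor of epithelial enhancers, had 39.1, 36.6 and 41.0 CPM in the naive libraries, against 3.36, 3.81 and 3.91 CPM in the ground libraries. No ground library came near a naive one. The changes were 4.41 ± 0.24, 3.76 ± 0.15 and 3.40 ± 0.11, with adjusted p = 1.02e-12, 8.12e-15 and 1.42e-16. Sox11 rose by 3.06 ± 0.17 and Sox3 by 1.89 ± 0.28. Fgf5, the usual marker of the later epiblast, was scarce at 0.479 ± 0.146 CPM in naive and 0.0996 ± 0.0776 CPM in ground cells. It was called (adjusted p = 0.0189), but not without naive replicate 3 (adjusted p = 0.0768), ground replicate 2 (adjusted p = 0.0667) or ground replicate 3 (adjusted p = 0.066). Foxd3 and Zfp281 were not called, although Zfp281 was when only the 6 libraries were fitted (adjusted p = 0.041).

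De novo DNA methylation genes were among the formative risers. Dnmt3a had 146, 137 and 154 CPM in the naive libraries, against 18.1, 18.2 and 21.0 CPM in the ground libraries. Dnmt3l, a cofactor without catalytic activity, had 315, 324 and 323 CPM in the naive libraries, against 46.5, 60.5 and 54.8 CPM in the ground libraries. Dnmt3b had 279, 259 and 304 CPM in the naive libraries, against 165, 157 and 174 CPM in the ground libraries. All were higher in every naive library. Dnmt3a was 7.62-fold higher, Dnmt3l 5.95-fold higher and Dnmt3b 1.70-fold higher, with changes of 2.93 ± 0.08, 2.57 ± 0.09 and 0.76 ± 0.08 (adjusted p = 1.1e-17, 6.75e-16 and 5.44e-08). Uhrf1, which recruits the maintenance enzyme to newly copied DNA, was lower at 533 ± 9.38 CPM in naive and 819 ± 53.02 CPM in ground cells (adjusted p = 1.27e-06). Dnmt1, the maintenance enzyme, was not called at 419 ± 47.7 CPM in naive and 454 ± 25.6 CPM in ground cells. Tet1, an oxidase of methylcytosine, averaged 832 ± 129.7 CPM in naive and 451 ± 8.35 CPM in ground cells (adjusted p = 0.000685), and Tet2 was not called, although it was called lower with no filter (adjusted p = 0.00585) and when only the 6 libraries were fitted (0.0174). Over the DNA methylation list 6 of 16 tested were higher and 4 lower, with a median of 0.16, and 8 were higher and 2 lower under total-count scaling. This was 62.5% called against 51.0% of all genes tested, with 2 members called at 2-fold or more, both higher.

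Transcripts of the betaine arm of the methionine cycle were nearly absent from naive cells. Bhmt and Bhmt2 encode methyltransferases that remake methionine, from betaine in the case of Bhmt, and Dmgdh encodes the mitochondrial enzyme that oxidises the dimethylglycine left over. Dmgdh had 0.461, 0.294 and 0.244 CPM in the naive libraries, against 60.3, 50.2 and 52.6 CPM in the ground libraries. Bhmt2 averaged 0.120 ± 0.0244 CPM in naive and 17.5 ± 1.71 CPM in ground cells. Bhmt had 0.288, 0.392 and 0.292 CPM in the naive libraries, against 21.0, 16.03 and 17.2 CPM in the ground libraries. All 3 genes were measured well in every ground library and were below 0.5 CPM in every naive library. They were 163-fold lower, 138-fold lower and 54.5-fold lower, with changes of -7.35 ± 0.20, -7.11 ± 0.27 and -5.77 ± 0.35 and adjusted p = 7.48e-18, 1.84e-15 and 5.22e-12. Per kilobase of exon, ground cells had 15.9 CPM of Dmgdh, 7.08 CPM of Bhmt2 and 3.14 CPM of Bhmt. Of the 50-base stretches of Bhmt, 26.1% also occur in 3 other gene models, a pseudogene among them, so its level is less certain than that of the other two. The other called members changed by less than 2-fold, apart from Sardh. Sardh, which encodes the enzyme for the next step of sarcosine breakdown, was scarce at 0.115, 0.0980 and 0.195 CPM in the naive libraries, against 0 in each ground library (adjusted p = 0.0139). Cbs, the first enzyme of transsulfuration, averaged 42.7 ± 0.673 CPM in naive and 75.9 ± 7.05 CPM in ground cells, and Mtr, the folate-dependent methionine synthase, 65.1 ± 6.21 CPM in naive and 114 ± 6.26 CPM in ground cells. Both were called lower (adjusted p = 2.07e-07 and 1.05e-06). Mat2a was not called, at 539.6 ± 27.6 CPM in naive and 557 ± 10.6 CPM in ground cells. Over 17 tested members 9 were lower and 2 higher with a median of -0.17, but the number called was 7 in place of 11 under scaling to the total count, without naive replicate 3 or without ground replicate 1.

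These 3 genes are neighbours on chromosome 13 of GRCm38, with Bhmt at chr13:93616675-93637961 and Bhmt2 at chr13:93655720-93674302 on the minus strand and Dmgdh at chr13:93674433-93752833 on the plus strand. The 11 tested genes of this stretch and of 500 kb to each side, these 3 included, were followed outwards. Lhfpl2, the gene of a tetraspan membrane protein whose lower coordinate is 383.4 kb from that of Dmgdh, had 1.56, 1.18 and 2.00 CPM in the naive libraries, against 19.6, 16.9 and 20.1 CPM in the ground libraries. It fell by 3.57 on the log2 scale (SE 0.24, adjusted p = 2.98e-11). Arsb, a lysosomal sulfatase gene that lies between Dmgdh and Lhfpl2 and shares 39.9% of its exon bases with other models, was low in both groups at 0.346 ± 0.131 CPM in naive and 1.26 ± 0.299 CPM in ground cells and was called lower (adjusted p = 0.000152). The antisense transcript AW495222 had 2 counts in naive and 29 in ground libraries, and reads on the 23.4% of its exon bases that it shares with Dmgdh cannot be told apart without strand. Jmy was called lower by a small amount, -0.45 ± 0.13. Homer1 was called lower at -0.28 ± 0.10 (adjusted p = 0.0252), but the call was lost under total-count scaling (0.107), with no filter (0.0533), and without naive replicate 1 (0.0799), naive replicate 2 (0.101), ground replicate 1 (0.178) or ground replicate 3 (0.0507). Scamp1 was called higher at 0.28 ± 0.11 (adjusted p = 0.0282), and its call was lost without naive replicate 2 (0.0773), naive replicate 3 (0.0547), ground replicate 1 (0.0657) or ground replicate 3 (0.0752). Tent2 was not called. Cmya5 was not called either (adjusted p = 0.0566), but was called higher under total-count scaling (0.0448), with no filter (0.0388) and without naive replicate 2 (0.00313).

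**Figure D3:**
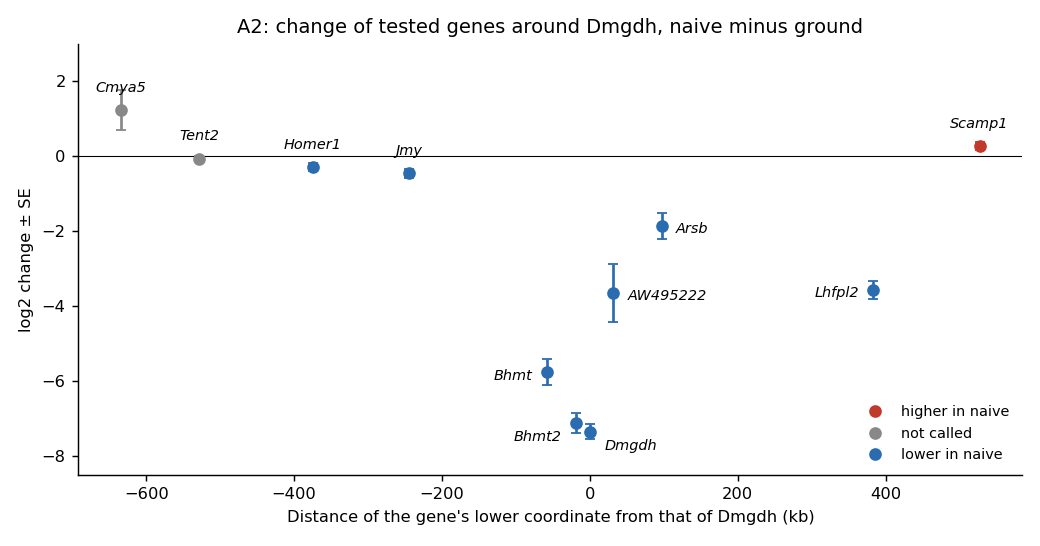
Log2 change ± SE, naive minus ground, of the 11 tested genes around Dmgdh against the distance of each gene's lower coordinate from that of Dmgdh in kb, red where called higher, blue where called lower and grey where not called. Bhmt, Bhmt2 and Dmgdh lie between -7.35 and -5.77, Lhfpl2 at -3.57, and the outermost genes, Cmya5 and Scamp1, at 1.24 and 0.28.

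Other branches of 1-carbon metabolism were mixed, with 9 of 20 tested genes of folate, serine, glycine and threonine metabolism higher and 6 lower and a median of 0.03. Gldc, the glycine decarboxylase, averaged 177 ± 7.98 CPM in naive and 67.6 ± 2.46 CPM in ground cells (adjusted p = 3.14e-11). Aldh1l1, a cytosolic folate dehydrogenase, averaged 6.94 ± 0.0980 CPM in naive and 24.9 ± 1.68 CPM in ground cells (adjusted p = 3.11e-11). Tdh, the threonine dehydrogenase on which mouse stem cells depend, was lower at 568 ± 40.5 CPM in naive and 842 ± 36.2 CPM in ground cells (adjusted p = 3.36e-06). The list of ATF4 and amino acid response genes had 14 of 27 higher and 2 lower, with a median of 0.41. Slc6a9, a glycine carrier with 30.2% of its exon bases shared with other genes, rose by 1.81 ± 0.22. Asns, the asparagine synthetase and a standard ATF4 target, was lower at 283 ± 19.5 CPM in naive and 667 ± 25.5 CPM in ground cells (adjusted p = 1.21e-11).

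Among imprinted genes, 23 of 40 were higher and 4 lower, with a median of 0.42. Cdkn1c, a growth-restraining inhibitor of cyclin-dependent kinases that is expressed from the maternal copy, had 55.0, 58.5 and 52.8 CPM in the naive libraries, against 1.56, 1.33 and 1.47 CPM in the ground libraries. Phlda2, its neighbour in the same imprinted domain, had 47.5, 59.3 and 49.3 CPM in the naive libraries, against 4.92, 5.03 and 5.76 CPM in the ground libraries. Plagl1, a zinc finger gene expressed from the paternal copy, had 0.750, 0.588 and 1.71 CPM in the naive libraries, against 26.2, 31.6 and 21.7 CPM in the ground libraries. Cdkn1c and Phlda2 were higher and Plagl1 lower in every naive library. The changes were 5.24 ± 0.14, 3.31 ± 0.20 and -4.68 ± 0.27 (adjusted p = 5.55e-18, 3.84e-12 and 1.9e-12). For Cdkn1c, 24.9% of the 50-base stretches also lie in the overlapping model Gm44732. The noncoding RNA H19 rose by 3.18 ± 0.30, Peg10 by 2.01 ± 0.19 and Grb10 by 1.41 ± 0.11.

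Primitive endoderm genes had 15 of 20 tested higher and 2 lower, with a median of 1.43. Lrp2, the endocytic receptor megalin, had 122, 74.3 and 94.7 CPM in the naive libraries, against 10.4, 10.1 and 8.81 CPM in the ground libraries. Cubn, its partner cubilin, had 5.13, 3.09 and 5.02 CPM in the naive libraries, against 0.284, 0.276 and 0.217 CPM in the ground libraries. Gata6, an early transcription factor of the lineage, had 1.96, 2.40 and 2.29 CPM in the naive libraries, against 0.473, 0.221 and 0.163 CPM in the ground libraries. The groups did not overlap for these genes, and the changes were 3.31 ± 0.28, 4.04 ± 0.72 and 2.89 ± 0.47 with adjusted p = 1.88e-09, 5.91e-05 and 2.05e-05. The abundant matrix genes of the same list went the other way, with Lamc1 at 835 ± 132 CPM in naive and 1452 ± 86.3 CPM in ground cells and Sparc at 229 ± 2.46 CPM in naive and 360.3 ± 15.2 CPM in ground cells. The summed level of the list was lower in naive cells, 1280 to 1689 CPM in naive and 1972 to 2139 CPM in ground libraries. The part of any such cells in these changes was not tested.

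Genes of the 2-cell-like state had 12 of 18 tested higher and 0 lower, with a median of 1.47. Zscan4c, of the cluster that is on in rare stem cells, had 3.52, 3.28 and 2.97 CPM in the naive libraries, against 0.426, 0.940 and 0.381 CPM in the ground libraries. Zscan4d had 6.40, 4.12 and 5.31 CPM in the naive libraries, against 0.946, 2.16 and 1.09 CPM in the ground libraries. Both were higher in every naive library than in any ground library (adjusted p = 1.96e-06 and 8.55e-06). The copies of this cluster share much sequence, 85.5% of the 50-base stretches of Zscan4c and 49.6% of those of Zscan4d, so values of single copies are uncertain. The summed level was 22.59 to 30.39 CPM in naive and 7.555 to 11.49 CPM in ground libraries.

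Germline genes were split, with 15 of 32 higher, 11 lower and a median of 0.13. Ddx4, the vasa helicase, had 23.8, 21.9 and 20.5 CPM in the naive libraries, against 3.97, 3.81 and 4.78 CPM in the ground libraries. Kit, the receptor of stem cell factor, had 102, 81.6 and 91.2 CPM in the naive libraries, against 349, 278 and 326 CPM in the ground libraries. The groups lay apart in both, at 2.39 ± 0.14 (adjusted p = 2.42e-12) and -1.79 ± 0.12 (adjusted p = 4.32e-11). Mael and Piwil2 of the transposon defence pathway rose by 1.84 ± 0.13 and 1.29 ± 0.13.

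Markers of the streak and mesendoderm had 7 of 16 tested lower and 4 higher, with a median of -0.42, which was 0.411 over the 19 members kept with no filter on low counts. Eomes averaged 2.46 ± 0.874 CPM in naive and 10.9 ± 1.04 CPM in ground cells and T 0.482 ± 0.221 CPM in naive and 1.71 ± 0.539 CPM in ground cells, both lower (adjusted p = 1.69e-09 and 0.000256). Several of its lower members, Cdx1, Cdx2 and T, are also on the Wnt target list. The summed level was 13.03 to 14.23 CPM in naive and 55.05 to 74.28 CPM in ground libraries. Neurectoderm genes had 6 of 13 tested higher and 5 lower, with a median of 0. When only the 12 A2 libraries were fitted, 6 of 12 tested were higher and 3 lower, with a median of 0.945. With only the 6 libraries, 4 of 9 tested were higher and 4 lower. Neurod1, a proneural factor, had 21.3, 22.8 and 24.1 CPM in the naive libraries, against 1.94, 2.05 and 2.50 CPM in the ground libraries. Pax6 rose by 4.49 ± 0.33 (adjusted p = 1.57e-10), and Sox21 was lower at -2.43 ± 0.15. For trophectoderm the split was 3 higher and 5 lower of 16 tested with a median of 0.09, and 6 higher and 5 lower under scaling to the total count. Tead4 and Krt8 were lower, at -1.91 ± 0.09 and -1.63 ± 0.16.

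**Figure D4:**
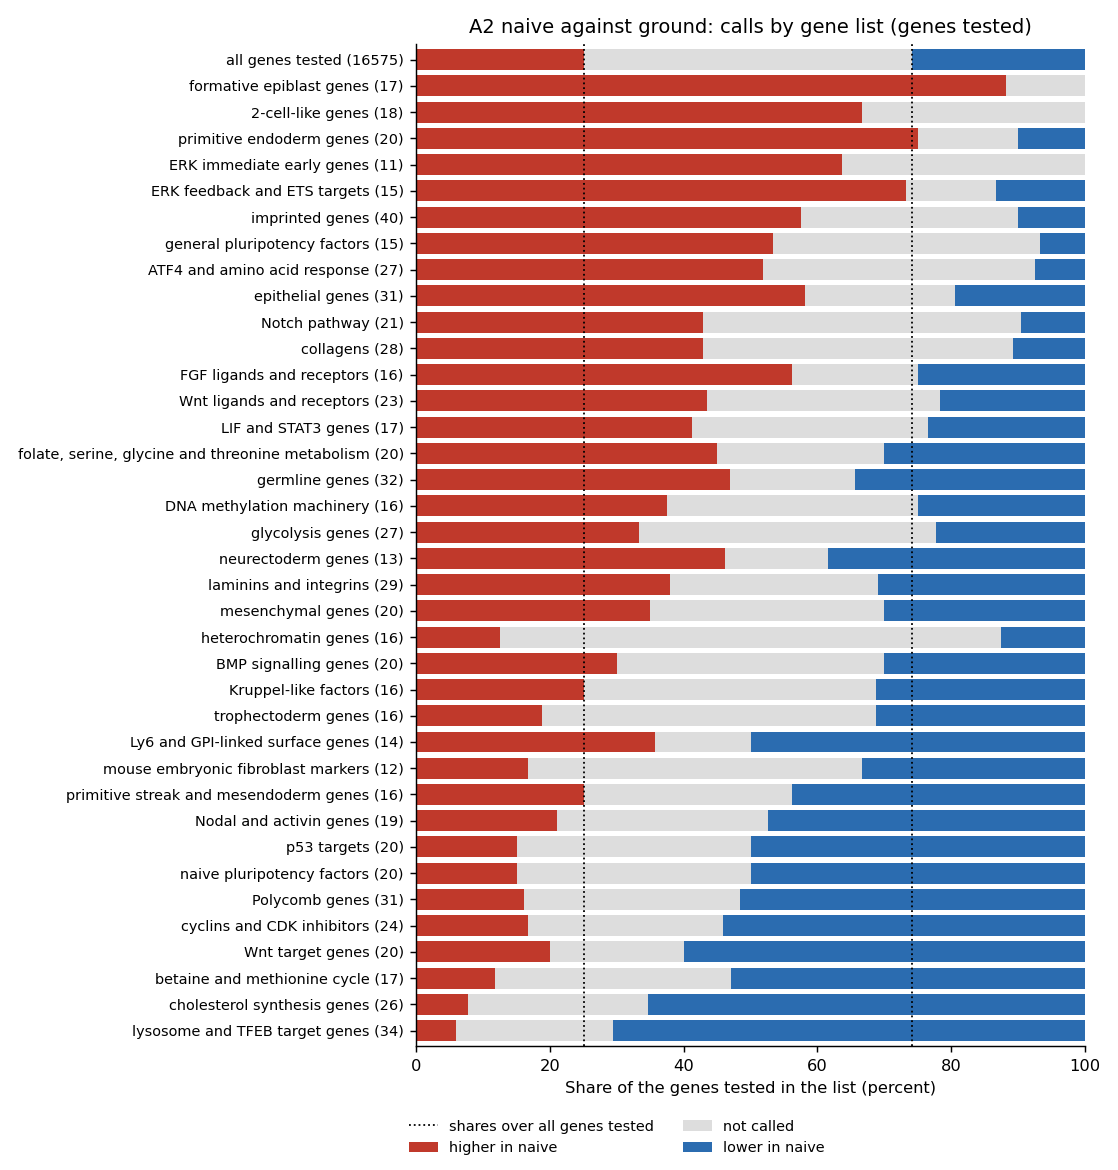
Share of the tested genes of each list that were called higher (red), not called (grey) or called lower (blue) in naive against ground A2 cells, with dotted lines at the shares over all genes tested, 25.1% and 25.9%, and the number tested in brackets. Formative, 2-cell-like and primitive endoderm lists lie at the top and lysosome and cholesterol lists at the bottom, and the order of higher and lower for trophectoderm flipped under total-count scaling.

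Epithelial genes had 18 of 31 tested higher and 6 lower, with a median of 0.70. Epcam averaged 97.7 ± 3.76 CPM in naive and 28.3 ± 0.632 CPM in ground cells (adjusted p = 3.46e-13), and Cldn6, a claudin of tight junctions, rose by 2.27 ± 0.16. Cdh1, the gene of E-cadherin, was slightly lower at 385 ± 24.5 CPM in naive and 540.3 ± 27.0 CPM in ground cells (adjusted p = 9.54e-06). Among mesenchymal genes 7 of 20 were higher and 6 lower, with a median of 0.19, or 0.00 with genes absent from a group set at their bound. Fn1, the fibronectin gene, averaged 948 ± 127 CPM in naive and 1878 ± 158 CPM in ground cells and Vim 177 ± 4.28 CPM in naive and 303 ± 26.5 CPM in ground cells, both lower (adjusted p = 5.1e-05 and 6.21e-05). S100a6 rose by 2.54 ± 0.17. Collagens had 12 of 28 tested higher and 3 lower with a median of 0.87, or 0.79 at the bound, and 9 called of 16 tested when only the 6 libraries were fitted. Col18a1, a basement membrane collagen, had 693, 603 and 635 CPM in the naive libraries, against 237, 244 and 239.8 CPM in the ground libraries, all naive libraries lying above all ground libraries (adjusted p = 5.36e-12). Laminins and integrins were divided, with 11 of 29 tested higher and 9 lower and a median of 0.25, or 0.00 at the bound, and with 9 higher and 10 lower when only the 12 A2 libraries were fitted.

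Serum cultures can hold fibroblasts as feeders, although the labels name none. Of 12 fibroblast markers, 2 were higher and 4 lower, with a median of -0.31, or 0.00 at the bound and 0.105 without ground replicate 2, and 3 of 5 tested were called when only the 6 libraries were fitted. The summed level of 996.4 to 1226 CPM in naive and 2098 to 2357 CPM in ground libraries was held mainly by Fn1 and Vim. Thy1 rose by 3.35 ± 0.20, at 6.92 ± 1.05 CPM in naive and 0.674 ± 0.162 CPM in ground cells. Of the other members, Col1a1, Col1a2 and Fbln2 lay between 0.111 and 2.79 CPM over the libraries of both groups, and Col3a1, Postn, Dcn, Lum, Twist2 and Prrx1 below 0.15 CPM. Any part of fibroblasts in the changes was not tested.

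Several Notch ligands and modifiers were higher. Of 21 pathway genes tested, 9 were higher and 2 lower, with a median of 0.53. The ligand gene Dll1 had 6.23, 6.42 and 6.29 CPM in the naive libraries, against 0.0946, 0.111 and 0.0544 CPM in the ground libraries. Jag2, another ligand gene, had 38.8, 31.2 and 33.5 CPM in the naive libraries, against 7.42, 9.01 and 6.96 CPM in the ground libraries. Lfng, which encodes the glycosyltransferase lunatic fringe, had 6.86, 7.35 and 7.26 CPM in the naive libraries, against 0.568, 0.553 and 0.544 CPM in the ground libraries. None of these ranges overlapped, and the changes were 6.08 ± 0.27, 2.14 ± 0.14 and 3.68 ± 0.20 (adjusted p = 3.9e-14, 1.46e-11 and 1.27e-12). Of the exon bases of Dll1, 20.5% are shared with an overlapping transcript. Hes1, a classical target of the pathway, was lower at 27.1 ± 2.99 CPM in naive and 37.7 ± 1.34 CPM in ground cells (adjusted p = 0.000295).

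Cell cycle regulators were more often lower than higher, with 13 of 24 lower, 4 higher and a median of -0.22. The number lower was 10 under total-count scaling, with 4 higher. The inhibitor genes diverged. Cdkn1a, which encodes p21, had 53.1, 57.1 and 55.2 CPM in the naive libraries, against 229, 203 and 207 CPM in the ground libraries. Cdkn2a, of the Ink4a and Arf locus, had 7.38, 6.96 and 7.75 CPM in the naive libraries, against 37.8, 30.1 and 35.8 CPM in the ground libraries. Both were lower in every naive library, at -1.95 ± 0.13 (adjusted p = 1.83e-11) and -2.23 ± 0.15 (adjusted p = 2.31e-11), while Cdkn1c rose as given above. Among D-type cyclins, Ccnd2 rose but Ccnd1 was not called, at 208 ± 13.1 CPM in naive and 215 ± 17.6 CPM in ground cells. Of 20 p53 targets 10 were lower and 3 higher, with a median of -0.26. Under total-count scaling 8 were lower and 6 higher, and with only the 6 libraries fitted 10 were lower and 6 higher. Sesn1 fell by 1.18 on the log2 scale and Perp rose by 0.81 ± 0.14.

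Lysosomal genes were mostly lower, with 24 of 34 lower and 2 higher and a median of -0.47. Npc2, a cholesterol carrier of the lysosome, had 67.9, 77.9 and 71.1 CPM in the naive libraries, against 207, 205 and 212 CPM in the ground libraries. Hexa, a subunit of beta-hexosaminidase, had 27.5, 31.0 and 29.5 CPM in the naive libraries, against 94.8, 84.6 and 89.1 CPM in the ground libraries. Ctsb, the gene of cathepsin B, had 81.5, 90.7 and 84.5 CPM in the naive libraries, against 218, 194 and 219 CPM in the ground libraries. The highest naive library was below the lowest ground library for each, and the changes were -1.52 ± 0.11, -1.61 ± 0.09 and -1.30 ± 0.09 (adjusted p = 1.53e-10, 2.84e-12 and 2.38e-11). Mitf, a transcription factor related to the lysosomal regulator TFEB, fell by 1.44 on the log2 scale, and Gpnmb, a target of that family, averaged 0.432 ± 0.226 CPM in naive and 4.28 ± 1.10 CPM in ground cells. Cholesterol synthesis genes had 17 of 26 lower and 2 higher, with a median of -0.38, and 13 lower under total-count scaling. Sqle, the squalene epoxidase, averaged 77.0 ± 3.29 CPM in naive and 177 ± 8.92 CPM in ground cells and was called lower (adjusted p = 3.56e-11).

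Glycolytic genes had 9 of 27 higher and 6 lower, with a median of 0.09. Pdk1, which restrains entry of pyruvate into mitochondria, had 188, 194 and 185 CPM in the naive libraries, against 49.98, 47.6 and 55.9 CPM in the ground libraries. The glucose carriers differed, with Slc2a1 higher at 605 ± 35.1 CPM in naive and 297 ± 4.27 CPM in ground cells and Slc2a3 lower at 831 ± 28.5 CPM in naive and 1330 ± 56.5 CPM in ground cells (adjusted p = 0.000165 and 6.49e-07). Hk1 fell by 1.24 on the log2 scale.

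Genes of the TGF-beta family were found in both directions. Id1, an inhibitor of helix-loop-helix factors and the classical BMP target, had 87.1, 89.5 and 80.0 CPM in the naive libraries, against 7.80, 11.8 and 7.56 CPM in the ground libraries. It rose by 3.24 ± 0.16 (adjusted p = 1.36e-13), within a BMP list of 6 higher and 6 lower of 20 tested and a median of 0.13. Bmp4 averaged 59.97 ± 3.84 CPM in naive and 21.3 ± 1.49 CPM in ground cells. Nodal and activin genes had 9 of 19 tested lower and 4 higher, with a median of -0.34, or -0.20 at the bound. Inhbb, an activin subunit, had 239.9, 233 and 209 CPM in the naive libraries, against 29.7, 34.1 and 37.3 CPM in the ground libraries. Fst, which traps activin, averaged 3.88 ± 0.836 CPM in naive and 26.6 ± 1.20 CPM in ground cells. Inhbb was higher and Fst lower in every naive library (adjusted p = 2.02e-12 and 1.51e-11). The feedback inhibitors diverged, with Lefty1 at 40.8 ± 12.4 CPM in naive and 13.2 ± 2.24 CPM in ground cells and Lefty2 at 38.2 ± 9.19 CPM in naive and 117 ± 11.2 CPM in ground cells, called higher and lower (adjusted p = 0.000171 and 7.7e-06). LIF and STAT3 genes, whose ligand was present in both groups, had 7 of 17 higher and 4 lower with a median of 0.08. Socs2 rose by 1.08 ± 0.11, and Stat3 was not called, at 158 ± 8.61 CPM in naive and 178 ± 5.23 CPM in ground cells.

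Polycomb genes had 16 of 31 lower and 5 higher, with a median of -0.15, and 13 lower and 7 higher under total-count scaling. Cbx8, which encodes a chromodomain subunit of the canonical first complex, averaged 0.395 ± 0.00738 CPM in naive and 4.91 ± 0.813 CPM in ground cells and was called lower (adjusted p = 6.14e-11). Phf19, a Polycomb-like subunit of the second complex, had 15.4, 12.5 and 15.8 CPM in the naive libraries, against 2.18, 2.60 and 2.07 CPM in the ground libraries. It rose by 2.68 ± 0.18 (adjusted p = 4.36e-11), with no overlap, whereas the core subunit Suz12 was lower at 269.8 ± 15.2 CPM in naive and 503 ± 10.1 CPM in ground cells (adjusted p = 2.59e-09). Jarid2, an accessory subunit, rose by 1.08 ± 0.09. Heterochromatin genes had the smallest share called of the lists, with 2 of 16 higher and 2 lower and a median of -0.05. Kruppel-like factors had 4 of 16 higher and 5 lower, with a median of -0.09. Among Ly6 and GPI-linked surface genes, 7 of 14 tested were lower and 5 higher with a median of -0.47, which was 0.05 over the 10 members kept when only the 6 libraries were fitted. Alpl, the tissue-nonspecific alkaline phosphatase long used to stain stem cells, fell by 1.75 on the log2 scale, with 108 ± 3.64 CPM in naive and 363 ± 23.4 CPM in ground cells.

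Line D3 was compared to see which A2 changes were particular to A2. The D3 libraries gave 8884 called genes for naive against ground. Both lines called 6742 genes in the same direction, 79.8% of the A2 calls and 75.9% of the D3 calls, and 39 in opposite directions. The correlation of the changes was 0.839 over 16575 genes (Pearson, a description across genes, which are not replicates). A test of the difference itself, the D3 change minus the A2 change, called 508 genes, or 3.06% of those tested, with D3 above A2 in 250 and below in 258. Of these, 139 had changes of opposite sign in A2 and D3. Of the 20 naive pluripotency factors, 5 were called for this difference, namely Tbx3, Nr0b1, Dppa3, Pecam1 and Sox15. The 3 betaine genes, Egr1 and Nanog were not called by this test.

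Otx2 was one gene whose size of change differed between lines. Its change was 3.76 ± 0.15 in A2 and 1.68 ± 0.12 in D3, so the D3 minus A2 difference was -2.07 ± 0.21 (adjusted p = 2.78e-06). The Wnt readout Axin2 fell more in A2, at -3.66 ± 0.17, than in D3, at -2.59 ± 0.15 (difference 1.07 ± 0.23, adjusted p = 0.00829). Fgf17 rose less in A2, at 2.68 ± 0.09, than in D3, at 4.69 ± 0.11 (adjusted p of the difference = 6.49e-08). Dppa3, the gene of Stella and a marker of naive cells and germ cells, was not called in A2 at 0.18 ± 0.19 but fell in D3 at -1.73 ± 0.17 (adjusted p of the difference = 9.66e-05). Kit fell in both lines, by less in A2 at -1.79 ± 0.12 than in D3 at -2.79 ± 0.13 (adjusted p of the difference = 0.00149).

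**Figure D5:**
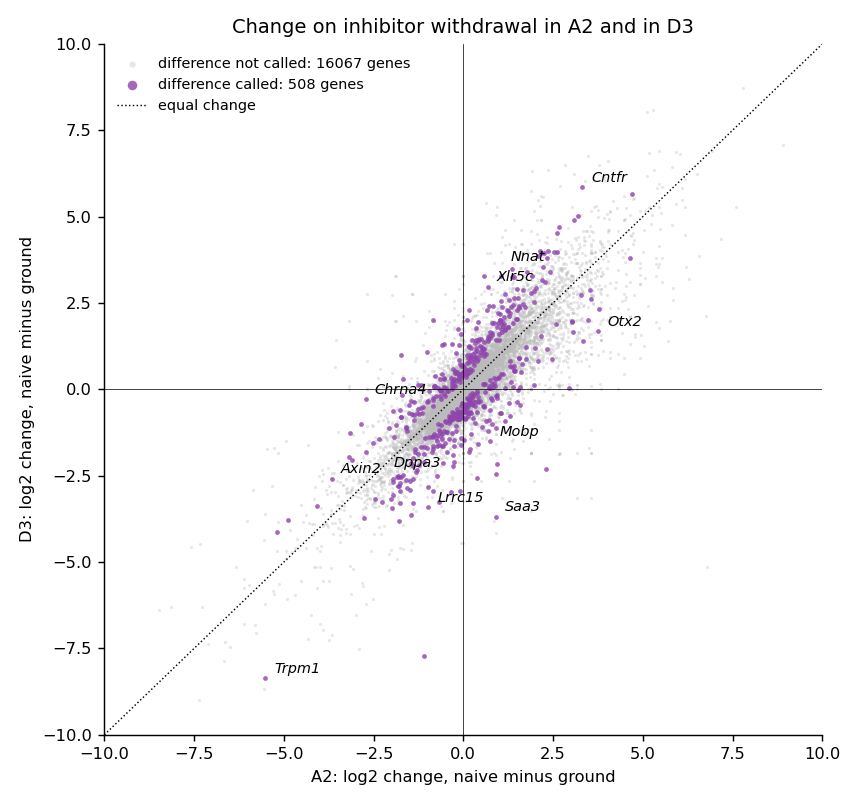
Log2 change, naive minus ground, in A2 (horizontal axis) against D3 (vertical axis) for 16575 genes, purple for the 508 genes called for the difference between lines and grey for the others, with a dotted line of equal change. Most genes lie along the line, and named genes such as Saa3 and Cntfr lie off it.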

How the data were processed

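Total RNA from 3 naive and 3 ground A2 samples was sequenced with the Illumina TruSeq RNA kit, per the labels' protocols, a chemistry that does not mark the strand. Values used are counts: the authors deposited raw read counts per gene, and the tools named are featureCounts, HISAT2 and SAMtools with build GRCm38, per the submitters' processing notes, with versions, annotation and strand setting not given in the sources used here. From these counts, genes were filtered with filterByExpr (minimum count 10, minimum total 15, 7 groups), scaled by TMM and fitted in 1 edgeR 4.0.16 quasi-likelihood model (R 4.3.3) over all 21 libraries, with 1 mean per group and 14 residual degrees of freedom. P-values were adjusted by Benjamini-Hochberg over 16575 genes, and a gene was called below 0.05. TMM factors were 1.001 to 1.003 in naive and 0.9358 to 0.9618 in ground libraries. The gene lists and the members were chosen with earlier results of these data known, so list counts describe only the members that passed the filter and support nothing further. Some lists share members. Named genes were the 10 largest rises and falls with at least 5 CPM and no overlap (gene models with clone names left out), a fixed panel of pluripotency and signalling genes, up to 6 called members of each list with at least 1 CPM, the 8 largest differences between lines and the neighbours of Dmgdh. A few further members are named where a count needed them, and a few genes are not reported here. Exon overlap and shared 50-base stretches came from GENCODE M21. Alternatives were RLE and total-count scaling, other filters, DESeq2 1.42.0, other sample sets, a test against a 2-fold change, the replicate block and leaving out each library.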

Additional observations from a re-analysis of the deposited data

Results flagged for a closer look

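The change on inhibitor withdrawal differed between D3 and A2 for 508 genes, by the test of the difference itself with edgeR. At an unadjusted p below 0.05 there were 2463. The 8 largest of these differences with at least 5 CPM in a group are given as the D3 change minus the A2 change, with A2 first among the levels. Saa3, an acute-phase serum amyloid gene, differed by -4.608 (adjusted p = 0.0164), with 0.134 ± 0.139 CPM in naive and 0.0684 ± 0.0597 CPM in ground cells of A2 and 0.798 ± 0.534 CPM in naive and 10.4 ± 0.804 CPM in ground cells of D3. Trpm1, a cation channel gene, differed by -2.843 (adjusted p = 5e-04) and fell in both lines, by 5.52 in A2 and 8.36 in D3 on the log2 scale. Cntfr, a receptor subunit of the LIF family of cytokines, differed by 2.553 (adjusted p = 0.000495) and rose in both, at 3.31 ± 0.20 in A2 and 5.86 ± 0.25 in D3. Chrna4, a nicotinic receptor subunit, differed by 2.444 (adjusted p = 0.0108), with 1.09 ± 0.133 CPM in naive and 7.16 ± 0.0889 CPM in ground cells of A2 and 0.486 ± 0.133 CPM in naive and 0.593 ± 0.233 CPM in ground cells of D3. Lrrc15 differed by -2.433 (adjusted p = 0.000231), with changes of -0.97 ± 0.22 in A2 and -3.40 ± 0.25 in D3. Xlr5c, of an X-linked family of near-identical copies, differed by 2.277 (adjusted p = 0.0145), with 0.802 ± 0.467 CPM in naive and 0.512 ± 0.164 CPM in ground cells of A2 and 7.76 ± 1.48 CPM in naive and 0.980 ± 0.240 CPM in ground cells of D3. Mobp differed by -2.251 (adjusted p = 0.000267) and went up in A2, at 0.75 ± 0.22, and down in D3, at -1.50 ± 0.24, both called. Nnat, an imprinted gene, differed by 2.235 (adjusted p = 0.00159), with 2.58 ± 0.998 CPM in naive and 1.22 ± 0.394 CPM in ground cells of A2 and 13.9 ± 2.84 CPM in naive and 1.41 ± 0.113 CPM in ground cells of D3. Each group has 3 libraries, so no library was tested for standing apart from its group, and the causes of these differences were not tested.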

How the results depend on the processing

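The count of 8446 genes called for naive against ground stayed within 1.5 times under RLE scaling (8412), total-count scaling (8506, with 4964 higher and 3542 lower), no filter (8596), a stricter filter (8110), the 12 A2 libraries (8316) and DESeq2 (8311). The fit of only the 6 libraries called 8316 genes, 7675 of them shared. Leaving out 1 library gave 7387 to 7836. A test against a 2-fold change called 1758 genes, 1062 higher and 696 lower, a smaller count by construction, and the counts of most gene lists fell with it. The 508 genes that differed between lines became 846 with no filter, 748 by DESeq2 and 310 to 515 on leaving out 1 library. The lowest counts came without A2 naive replicate 1 (329), A2 naive replicate 3 (323), A2 ground replicate 3 (312) or D3 ground replicate 2 (310), and the cause was not tested. With the replicate block, 8343 and 454 genes were called. Deviations of same-numbered libraries from their group means correlated at 0.046, -0.019 and 0.003, and the samples were not treated as paired. The series text speaks of paired samples without saying what pairs them, so the pairing remains unknown. Depth limits genes below 1 CPM, whose median SE was 0.499 against 0.079 above 100 CPM.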

Other observations

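Other gene groups not described above were chosen after their values were seen and are given as values only, with no test of the group. Of 5 target genes of the aryl hydrocarbon receptor, a sensor of small aromatic compounds, 4 were lower and 1 higher in naive cells. Cyp1a1, its classical target, had 0.634, 0.882 and 0.682 CPM in the naive libraries, against 49.7, 55.8 and 34.0 CPM in the ground libraries. Ahrr, which represses the receptor, averaged 0.466 ± 0.153 CPM in naive and 3.97 ± 1.24 CPM in ground cells, Cyp1b1 2.11 ± 0.326 CPM in naive and 7.30 ± 1.74 CPM in ground cells and Nqo1 45.5 ± 3.49 CPM in naive and 106 ± 1.54 CPM in ground cells, all called lower (adjusted p = 1.05e-07, 0.000123 and 1.32e-09). Tiparp, another target, was called higher, at 78.6 ± 2.99 CPM in naive and 51.2 ± 0.901 CPM in ground cells (adjusted p = 5.34e-07). For Cyp1a1, Ahrr and Cyp1b1 the spread in CPM was larger among ground than naive libraries, but so were the means. Spread relative to the mean was not compared. Ground replicate 3 was the lowest ground library for each.

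Of the Hedgehog pathway, 3 genes are given. Gli1, a transcription factor that is itself a target, had 138, 116 and 130.4 CPM in the naive libraries, against 5.11, 5.53 and 3.97 CPM in the ground libraries. The receptor gene Ptch1 rose by 1.63 ± 0.14, and Smo, the signal transducer, by 0.73 ± 0.09. No naive library overlapped a ground library for these 3 genes, as held for 59.5% of all genes tested. Other genes of the pathway are not given, so these 3 do not describe it as a whole. The 31 tested Hox genes, named by symbol, had 0 higher and 11 lower members with a median of -0.80. The other 20 were not called, so 35.5% were called against 51.0% of all genes tested. Their summed level was 8.937 to 9.604 CPM in naive and 39.73 to 42.28 CPM in ground libraries. Hoxc13 averaged 2.74 ± 0.394 CPM in naive and 17.4 ± 0.833 CPM in ground cells and Hoxc12 0.331 ± 0.270 CPM in naive and 7.23 ± 1.11 CPM in ground cells, both called lower (adjusted p = 1.46e-11 and 1.29e-09). The class II gene H2-Eb1 averaged 1.59 ± 0.324 CPM in naive and 20.3 ± 1.54 CPM in ground cells (adjusted p = 9.02e-14), and H2-Ab1 0.0902 ± 0.0867 CPM in naive and 0.937 ± 0.0630 CPM in ground cells.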
